A study of Mus musculus with 12 samples.

Results

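The genes described here are 54 cell cycle and DNA replication genes, of the 54446 genes counted in every library. They were chosen by name, as genes known for their part in S phase or in mitosis, and found in the count tables through their mouse gene symbols. The choice was made with earlier results of these data known. Of the 54, 22 act in S phase and 32 act in mitosis, and all 54 were counted. The libraries came from wild-type (WT) mice, Ythdf2 f/f by the study's methods, bearing MC38 tumors, a mouse colon carcinoma line, from which CD11b+ myeloid cells were sorted. The mice were left unirradiated (Ctrl) or their tumors received a single local dose of ionizing radiation (IR) of 20 Gy, and the cells were taken 3 days after IR. Cells of several mice were pooled for each library, and the study's methods call the 3 pools of a condition technical replicates, so p-values measure the spread between pools, which may be technical. From each pool, a part of the lysate was kept as Input, and the rest went into an immunoprecipitation (IP) with an antibody to YTHDF2, a reader of N6-methyladenosine (m6A) in RNA, giving RNA immunoprecipitation sequencing (RIP-seq) libraries. This makes 4 groups of 3 libraries, Ctrl Input, IR Input, Ctrl IP and IR IP, and no group is labelled as deleted for Ythdf2. The labels and the study's methods name different makers of the antibody, and no library made with a non-specific antibody was used here, so that binding is read as the IP relative to its Input.

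S phase copies the genome once. The MCM helicase is loaded onto origins by CDC6 and CDT1, started by CDC45 and the GINS complex, and followed by polymerases that need a supply of deoxynucleotides, and most of these genes are switched on by E2F factors. Mitosis then condenses, attaches and parts the chromosomes under the control of CDK1 with cyclins A and B, of the Aurora and Polo kinases, and of the anaphase-promoting complex. Mitotic genes are switched on later, in G2, largely through B-Myb and FoxM1 with the MuvB complex. MuvB binds a promoter element called CHR (cell cycle genes homology region), often beside CCAAT boxes bound by NF-Y. Most mature myeloid cells do not divide, while their progenitors and some tumor macrophages and monocytes do, and YTHDF2 is known for speeding the decay of m6A-marked transcripts.

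The promoters of the genes carried these elements to different degrees. They are shown because E2F and CHR letters differed in frequency between the S-phase and mitotic genes, and promoters did not enter the choice of genes. RefSeq promoter windows (assembly GRCm38.p6, from 250 bases before to 50 bases after the start) were found for 44 of the 54 genes, 18 S-phase and 26 mitotic. Counts are of genes, each taken over every window listed for it, so that 2 kinds of letters in a gene may lie in different windows. The letters TTTCCCGC, TTTCGCGC, TTTGCCGC or TTTGGCGC, spellings of the E2F element, were searched on both strands. They were in 7 of 18 S-phase genes (38.9%), in 3 of 26 mitotic genes (11.5%) and in 2.61% of all 27025 genes with a window. The CHR letters TTTGAA were in 3 of 18 S-phase genes (16.7%), in 20 of 26 mitotic genes (76.9%) and in 20.2% of all these genes. CCAAT was in 12 of 18 (66.7%), 22 of 26 (84.6%) and 41.1%, in the same order. Both CHR and CCAAT letters were in 19 of 26 mitotic genes (73.1%) against 8.97% of all genes with a window. A match is a description of letters and not a bound site. Most of the 18 S-phase genes held no E2F letters, *Pcna*, *Mcm2* and *E2f1* among them. The promoter stretches of 6 genes follow as examples, 5′ to 3′ on the strand of the gene, with E2F, CHR and CCAAT letters (ATTGG on the other strand) in capitals. The first 2, of subunits of the MCM helicase, hold E2F and CCAAT letters, with E2F copies on opposite strands that overlap, and the other 4 are of mitotic genes. They lie at chr8:75109346-75109529 on the plus strand (*Mcm5*), chr1:128359705-128359825 (*Mcm6*), chr10:69352912-69353130 (*Cdk1*), chr9:70421535-70421731 (*Ccnb2*), chr13:100786539-100786595 (*Ccnb1*) and chr7:135716462-135716577 (*Mki67*), the last 5 on the minus strand.
Mcm5: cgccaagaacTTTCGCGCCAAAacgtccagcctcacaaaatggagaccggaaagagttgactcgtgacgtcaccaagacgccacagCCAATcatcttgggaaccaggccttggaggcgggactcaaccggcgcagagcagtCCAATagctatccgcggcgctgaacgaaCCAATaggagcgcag
Mcm6: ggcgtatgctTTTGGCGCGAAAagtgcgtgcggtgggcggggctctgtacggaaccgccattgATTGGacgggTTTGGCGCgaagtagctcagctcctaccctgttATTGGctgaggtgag
Cdk1: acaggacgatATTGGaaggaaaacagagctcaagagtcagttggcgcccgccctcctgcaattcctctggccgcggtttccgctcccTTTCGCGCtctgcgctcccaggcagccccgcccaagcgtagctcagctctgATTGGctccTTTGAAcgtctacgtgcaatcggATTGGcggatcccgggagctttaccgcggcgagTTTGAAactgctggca
Ccnb2: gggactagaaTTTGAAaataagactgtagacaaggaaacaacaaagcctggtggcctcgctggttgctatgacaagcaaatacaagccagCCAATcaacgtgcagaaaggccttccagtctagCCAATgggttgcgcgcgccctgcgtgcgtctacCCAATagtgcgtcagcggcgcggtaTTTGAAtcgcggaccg
Ccnb1: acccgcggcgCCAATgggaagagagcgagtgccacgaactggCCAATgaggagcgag
Mki67: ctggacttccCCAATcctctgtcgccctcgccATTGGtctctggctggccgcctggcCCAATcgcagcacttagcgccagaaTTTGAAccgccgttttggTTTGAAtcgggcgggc
*Cdk1*, the kinase that starts mitosis, held all 3 kinds of letters. *Ccnb2* and *Mki67* held 2 CHR copies and 3 CCAAT copies each. *Ccnb1* held 2 CCAAT copies and no copy of the other letters in its window.

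The libraries held 34445784 to 40008607 (Ctrl Input), 37940948 to 42382532 (IR Input), 28919897 to 33882664 (Ctrl IP) and 27852948 to 30244160 (IR IP) counts on genes. Reads outside annotated exons were a larger share of uniquely placed reads in the IP libraries, at 41.8% to 42.7% in Ctrl IP and 49.4% to 54.1% in IR IP, than in the Inputs, at 24.6% to 27.0%. Levels below are counts per 1000000 counts (CPM) on a scale set over all 12 libraries, on which 3 counts are worth 0.0738 to 0.112 CPM, and differences are log2 fold changes with standard errors (± SE, n = 3 pools a group) from a fit of the groups compared. The 2 scales are not the same. The median log2 change between the Inputs was 0.0072 over the 16914 genes in the fit of the 6 Inputs. It was 0.097 over the 20720 genes in the fit of all 12 libraries, so the 2 medians differ in their genes as well as in scale. Small increases in CPM between the Inputs can stand beside a fitted change near 0. Some members share reads or bases with other genes and are less certain. Processed pseudogenes of *Ccnb1*, *Ccnb2*, *Pcna* and *Tyms* were counted, with up to 134 counts for Ccnb1-ps in 1 IR IP library. Exons of *Gins2* overlapped those of Gse1 on the other strand over 2758 bases, and those of *Kif20a*, *Ncapg*, *Prc1*, *E2f8*, *Ccne2*, *Ube2c*, *Ccna2* and *Mcm7* overlapped other genes on the other strand over 385 to 1271 bases. *Ncapd2* overlapped Gm28967 and Scarna10 on its own strand over 472 bases, *Mcm7* 2 miRNA genes over 172 bases, and *Top2a* and *Stmn1* small genes over 122 and 66 bases. Another 7 overlapped genes of the other strand over 53 to 289 bases. The library kit keeps the strand, but whether the counting used it is not given in the sources used here.

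Cell cycle genes were expressed over a wide range in the unirradiated myeloid cells. Per kb of annotated exon, all 54 were above the middle of the 21918 annotated protein-coding genes. They ran from *Pola1* at 2.41 CPM per kb (percentile 61.1) to *Hmgb2* at 328 CPM per kb (percentile 99.5). Only 12846 nuclear protein-coding genes had enough counts to be tested between the Inputs, so these percentiles overstate the rank among expressed genes. The highest were 4 genes of chromatin and 1 of microtubules: *Hmgb2*, a DNA-bending chromatin protein, *Smc4* at 116 CPM per kb, the condensin core subunit, *Stmn1* at 86.4, which destabilizes microtubules, *Mki67* at 67.3, the Ki-67 protein that coats mitotic chromosomes, and *Top2a* at 53.5, the topoisomerase that untangles DNA. The lowest were *Pola1*, *Pole* at 3.04, *Ect2* at 3.19 and *Cdc6* at 3.26 CPM per kb.

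The first comparison, IR Input against Ctrl Input, asks how the RNA of these genes differed after IR. Levels after IR were lower for genes of S phase and of mitosis alike: 48 of the 54 genes fell, 20 of 22 S-phase genes and 28 of 32 mitotic genes, and 2 rose (*Stmn1* and *Smc4*), by edgeR's quasi-likelihood F test, Benjamini-Hochberg adjusted. Of all 16914 genes tested, 23.9% fell and 21% rose, and of the protein-coding genes that averaged 100 counts or more 31.1% fell and 26.2% rose. The median log2 change was -0.39 over the S-phase genes and -0.53 over the mitotic genes, beside 0.0072 over all genes tested. No S-phase gene rose, whether by edgeR, by DESeq2 or at an unadjusted p under 0.05. In these bulk libraries, fewer dividing cells and less RNA per dividing cell cannot be told apart.

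**Figure D1:**
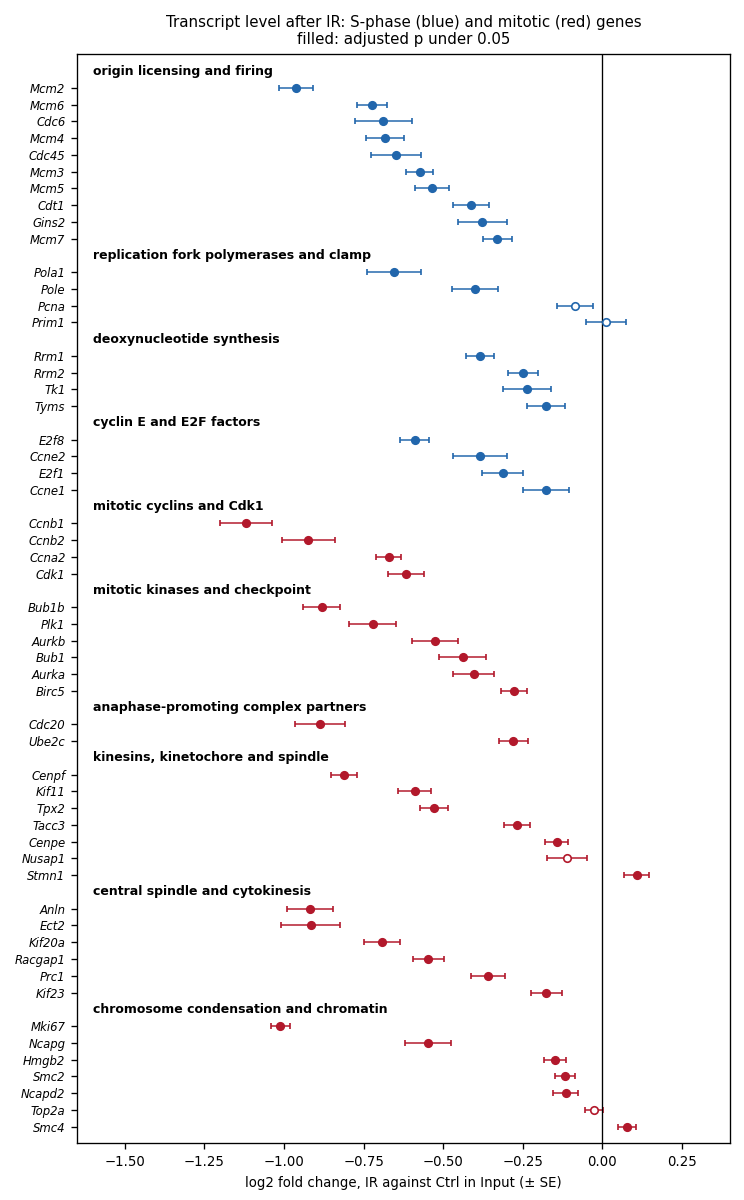
Log2 change of the 54 genes in IR Input against Ctrl Input, in rows by role, with bars of ± SE and filled points where the adjusted p was under 0.05. The points run from -1.12 (*Ccnb1*) to 0.11 (*Stmn1*), and most lie left of 0; on the 12-library scale *Top2a* moves to the right of 0.

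All 10 licensing and firing genes fell, with a median of -0.61. *Mcm2*, a subunit of the helicase, was at 55.7, 57.9 and 60.0 CPM in the 3 Ctrl Inputs and 31.3, 30.2 and 32.6 CPM in the 3 IR Inputs. Every IR Input lay far below every Ctrl Input, a change of -0.96 ± 0.054 (adjusted p = 5.71e-14, edgeR's quasi-likelihood F test, Benjamini-Hochberg adjusted). *Mcm6*, another subunit, went from 72.2, 76.2 and 74.8 CPM to 46.2, 47.0 and 49.7 CPM (-0.72 ± 0.047). *Mcm4* went from 40.4, 40.7 and 44.2 to 27.9, 26.3 and 28.2 CPM (-0.68 ± 0.061), and *Mcm5* from 69.2, 71.0 and 68.8 to 45.9, 51.3 and 55.0 CPM (-0.53 ± 0.054). The groups did not overlap for any of these 4. *Cdc6*, which loads the helicase, changed by -0.69 ± 0.09 from 16.6 to 17.8 CPM to 10.4 to 11.6 CPM. Its partner *Cdt1* changed by -0.41 ± 0.056, *Cdc45*, which joins the helicase when an origin fires, by -0.65 ± 0.079, and *Gins2*, of the GINS complex, by -0.38 ± 0.077. *Mcm3* and *Mcm7* changed by -0.57 ± 0.042 and -0.33 ± 0.046, so that the 6 subunits of the ring ran from -0.96 to -0.33.

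Of the 4 genes of the replication fork, 2 fell and 2 did not pass the test. *Pola1*, the catalytic subunit of the polymerase that starts each new strand, fell from 21.3, 21.7 and 20.6 CPM to 13.1, 14.0 and 15.5 CPM (-0.65 ± 0.084). *Pole*, the leading-strand polymerase, fell too (-0.40 ± 0.073). *Pcna*, the sliding clamp, was at 44.7, 51.8 and 53.1 CPM in the Ctrl Inputs and 49.7, 48.4 and 50.8 CPM in the IR Inputs. These groups overlapped, and the change of -0.087 ± 0.056 did not pass the test (adjusted p = 0.225, edgeR's quasi-likelihood F test, Benjamini-Hochberg adjusted). *Prim1*, the primase subunit that works beside *Pola1*, was at 31.7, 30.4 and 29.8 CPM and then 31.1, 33.3 and 33.5 CPM, a change of 0.011 ± 0.062 (adjusted p = 0.901 by the same edgeR test and adjustment).

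The 4 genes of deoxynucleotide synthesis all fell, with a median of -0.24. *Rrm1* and *Rrm2*, the large and small subunits of ribonucleotide reductase, changed by -0.38 ± 0.044 and -0.25 ± 0.048. *Rrm2* stood at 60.5, 64.8 and 66.0 CPM in the Ctrl Inputs and 57.0, 55.0 and 58.1 CPM in the IR Inputs, which do not overlap. *Tyms*, thymidylate synthase, was at 43.9, 39.5 and 40.3 CPM and 37.5, 37.2 and 40.8 CPM, with overlapping groups and a change of -0.18 ± 0.06 (adjusted p = 0.0174, edgeR's quasi-likelihood F test, Benjamini-Hochberg adjusted). *Tk1*, the thymidine kinase of the salvage route, changed by -0.24 ± 0.076. Of the cyclin E and E2F genes, all 4 fell. *Ccne1*, a cyclin that drives entry into S phase, was at 25.5, 30.2 and 30.6 CPM and 26.6, 27.7 and 26.4 CPM, overlapping, with a change of -0.18 ± 0.071 (adjusted p = 0.0457 by the same edgeR test and adjustment). *Ccne2* fell from 17.5, 18.5 and 17.7 to 15.1, 13.4 and 14.9 CPM (-0.38 ± 0.085). *E2f1*, an activator of S-phase genes, fell from 37.3, 38.2 and 37.7 to 35.4, 31.6 and 29.3 CPM (-0.31 ± 0.065). *E2f8*, an atypical E2F that represses them, changed by -0.59 ± 0.045.

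The mitotic cyclins and their kinase had the lowest median of the 10 role groups, -0.80, and all 4 fell. *Ccnb1*, cyclin B1, was at 26.2, 27.4 and 24.8 CPM in the Ctrl Inputs and 13.5, 12.8 and 11.8 CPM in the IR Inputs (-1.12 ± 0.082, adjusted p = 1.1e-11, edgeR's quasi-likelihood F test, Benjamini-Hochberg adjusted). No other of the 54 genes had a lower log2 change. *Ccnb2* went from 32.1, 32.3 and 32.6 to 15.5, 17.7 and 20.8 CPM (-0.92 ± 0.082), and *Ccna2*, cyclin A2, from 109, 109 and 108 to 72.2, 73.0 and 70.7 CPM (-0.67 ± 0.04). *Cdk1* went from 42.6, 43.6 and 44.0 to 29.7, 31.2 and 28.8 CPM (-0.62 ± 0.057, adjusted p = 1.14e-09 by the same edgeR test and adjustment). None of the 4 had overlapping groups. All 6 mitotic kinase and checkpoint genes fell too, from *Birc5* (survivin, -0.28 ± 0.041) to *Bub1b* (the checkpoint protein BubR1, -0.88 ± 0.057), with *Plk1* at -0.72 ± 0.073, *Aurkb* at -0.53 ± 0.072, *Bub1* at -0.44 ± 0.074 and *Aurka* at -0.40 ± 0.064. Of the partners of the anaphase-promoting complex, *Cdc20*, its activator, changed by -0.89 ± 0.079 and *Ube2c*, its ubiquitin-conjugating enzyme, by -0.28 ± 0.045.

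The central spindle and cytokinesis genes all fell, with a median of -0.62. *Ect2*, which activates RhoA at the division plane, went from 17.4, 16.3 and 17.9 CPM to 10.1, 9.18 and 9.51 CPM (-0.92 ± 0.093). *Anln*, the scaffold anillin, went from 31.2, 33.5 and 30.5 CPM to 16.7, 18.1 and 18.3 CPM (-0.92 ± 0.072). Both groups of 3 were apart for both genes. *Kif20a* changed by -0.69 ± 0.058, *Racgap1* by -0.55 ± 0.049, *Prc1*, which bundles the midzone microtubules, by -0.36 ± 0.053 and *Kif23* by -0.18 ± 0.049. Among the 7 kinesin, kinetochore and spindle genes, 5 fell, 1 rose and 1 did not pass the test. *Cenpf*, a kinetochore protein, fell from 141, 133 and 130.0 CPM to 80.3, 81.1 and 81.3 CPM (-0.81 ± 0.041). *Cenpe*, the kinetochore kinesin, was at 205, 202 and 199.9 CPM and 193, 202 and 185 CPM, and its change was small (-0.14 ± 0.036, adjusted p = 0.00217, edgeR's quasi-likelihood F test, Benjamini-Hochberg adjusted). *Kif11*, the motor that pushes the spindle poles apart, changed by -0.59 ± 0.051, *Tpx2*, a spindle assembly factor, by -0.53 ± 0.044, *Tacc3* by -0.27 ± 0.04 and *Nusap1* by -0.11 ± 0.063 (adjusted p = 0.161 by the same edgeR test and adjustment). *Stmn1* rose from 169, 168 and 161 CPM to 199.7, 188 and 179.5 CPM (0.11 ± 0.039, adjusted p = 0.0256 by the same test), a rise that was lost when scaling by library size only or without any 1 of the replicate numbers.

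Of the 7 condensation and chromatin genes, 5 fell, 1 rose and 1 did not pass the test. *Mki67* was at 680.3, 665 and 685 CPM in the Ctrl Inputs and 351, 361 and 352 CPM in the IR Inputs. Every IR Input lay far below every Ctrl Input, and the 3 values within a group were close together, with a change of -1.01 ± 0.029 (adjusted p = 5.83e-20, edgeR's quasi-likelihood F test, Benjamini-Hochberg adjusted). *Top2a*, which like *Mki67* peaks in G2 and mitosis, was at 488, 476 and 483 CPM and 509.6, 494 and 497 CPM, a change of -0.026 ± 0.029 (adjusted p = 0.506 by the same edgeR test and adjustment). In CPM the IR Inputs of *Top2a* all lay above the Ctrl Inputs, and on the 12-library scale its fitted change was 0.053. *Smc4* was at 610.0, 597 and 606 CPM and 665, 683 and 674 CPM, a change of 0.078 ± 0.028 that was lost when scaling by library size only or without replicate 2 or 3. *Smc2*, its partner in the condensin core, changed by -0.12 ± 0.032, *Ncapd2* and *Ncapg*, 2 further condensin subunits, by -0.12 ± 0.038 and -0.55 ± 0.073, and *Hmgb2* by -0.15 ± 0.035, with overlapping groups at 952 to 1051 CPM and 900.2 to 965 CPM.

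**Figure D2:**
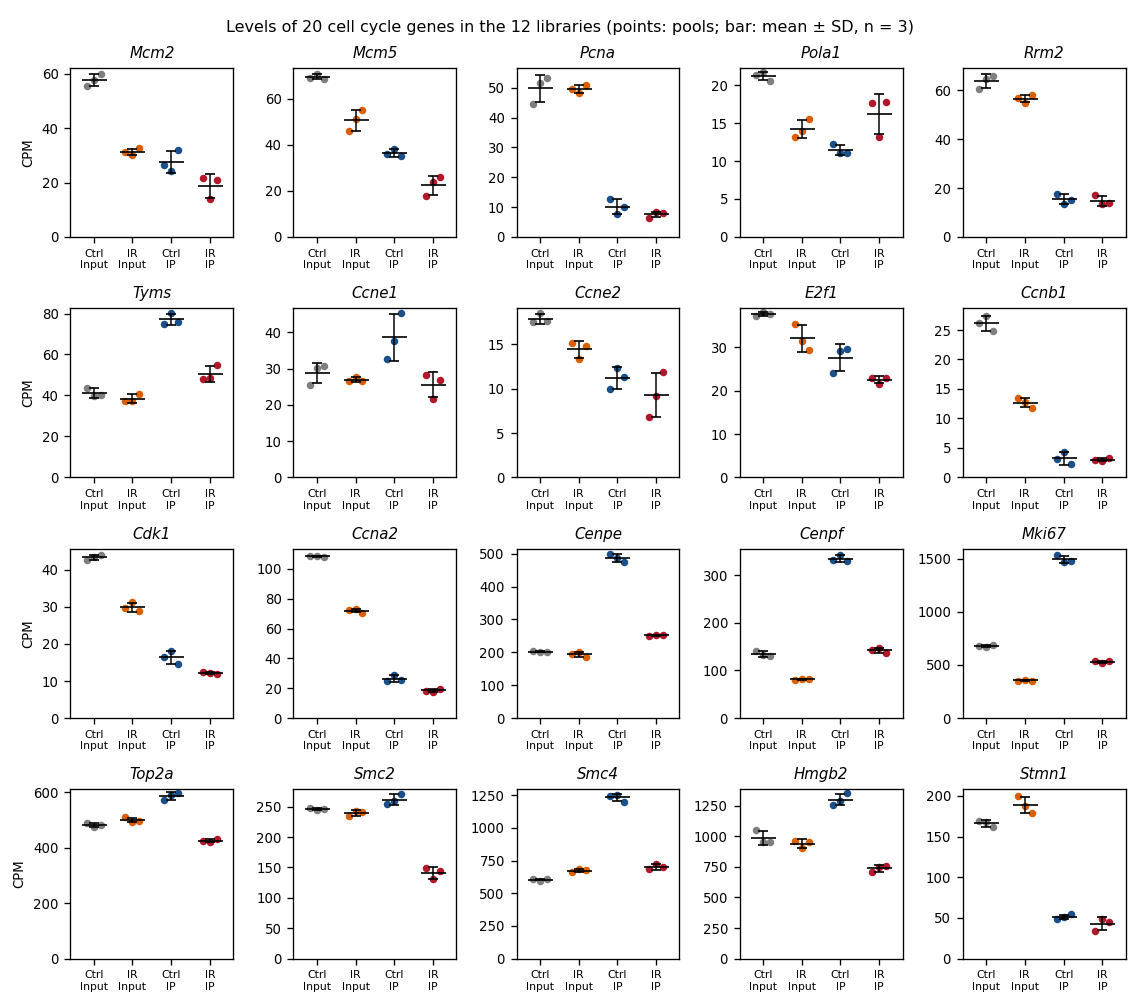
CPM of 20 of the genes in the 12 libraries, 1 panel a gene with its own axis from 0, with a point per library and lines for the group mean ± SD (n = 3). In *Mki67* the 3 IR Inputs lie at 351 to 361 CPM, below the Ctrl Inputs at 665 to 685, while the 3 Ctrl IP libraries lie at 1471 to 1534 and the IR IP libraries at 521 to 539.

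Across all 54 genes the IR Inputs lay below all Ctrl Inputs for 41 and above for 3 in CPM, and overlapped for 10, beside 21.1% below and 32.6% above over the 16914 genes tested. The summed level of the 22 S-phase genes was 1028 to 1054 CPM in the Ctrl Inputs and 804 to 824 CPM in the IR Inputs. That of the 32 mitotic genes was 4782 to 4933 CPM and 4178 to 4233 CPM. With all 12 libraries in 1 fit 9 S-phase and 15 mitotic genes fell, beside 1500 lower and 2621 higher of all 20720 genes tested. With 1 replicate number left out 18 to 20 S-phase and 26 to 27 mitotic genes fell. Over all genes, 3588 of 16123, 3293 of 16098 and 3137 of 16036 fell without replicate 1, 2 and 3. Of the 54 genes, *Ccnb1* and *Mki67* were at least 2-fold lower.

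Other genes of the cycle, in lists that hold none of the 54, are given beside them. These lists too were drawn up with earlier results of these data known, so they describe these data and are no independent support. Of 26 other S-phase genes 21 fell and 0 rose, with a median of -0.36. *Ung*, the uracil-DNA glycosylase, changed most (-2.52 ± 0.18), followed by *Cdca7*, a *Myc* target and chromatin remodeling factor (-1.04 ± 0.079). Of 28 other mitotic genes 19 fell and 5 rose, with a median of -0.30. *Nek2* and *Dlgap5*, of the centrosome and the spindle, changed by -0.74 ± 0.082 and -0.64 ± 0.08, while *Psrc1* and *Gtse1*, both known targets of p53, changed by 1.60 ± 0.046 and 0.87 ± 0.067. Of 17 G1 cyclins, Cdks and transcription factors 12 fell and 0 rose: *Myc* changed by -1.13 ± 0.063, *Mybl2*, which encodes B-Myb, by -1.03 ± 0.066 and *Foxm1* by -0.45 ± 0.047. The list of cell cycle inhibitors moved the other way, with 8 of 16 higher and 2 lower and a median of 0.37. *Cdkn1a*, the p53 target p21, was at 336, 346 and 343 CPM in the Ctrl Inputs and 1062, 1067 and 1056 CPM in the IR Inputs. The change was 1.56 ± 0.028 (adjusted p = 8.12e-25, edgeR's quasi-likelihood F test, Benjamini-Hochberg adjusted), and *Ccng1*, cyclin G1, changed by 1.27 ± 0.036. *Wee1*, the kinase that restrains CDK1, and *Rbl1*, p107, were the 2 inhibitors that fell (-0.88 ± 0.14 and -0.55 ± 0.067).

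**Figure D3:**
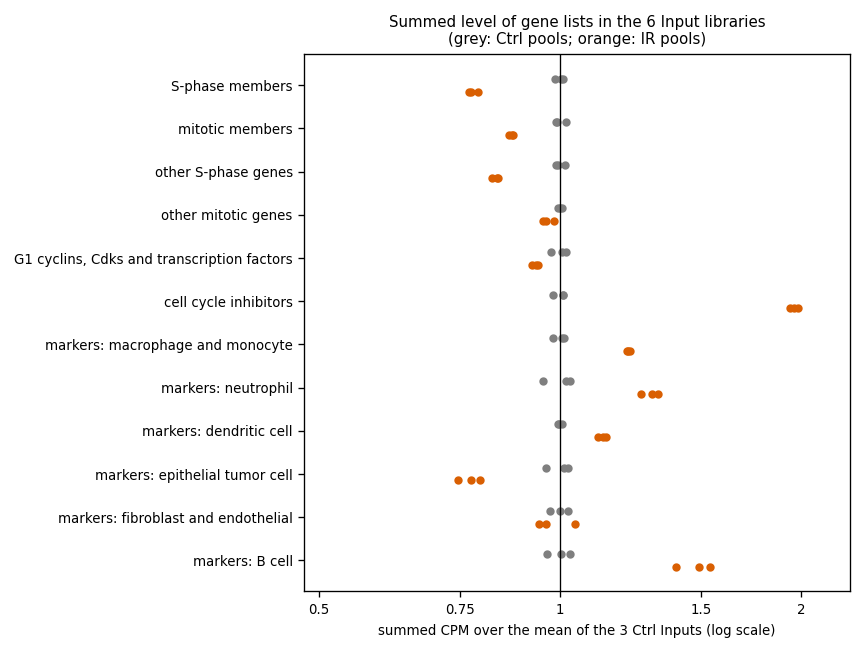
Summed CPM of the S-phase genes, the mitotic genes, the other cell cycle lists and the marker lists in the 6 Inputs, each over its mean in the Ctrl Inputs, with a point per library. The S-phase and mitotic sums lie below 1 in all 3 IR Inputs, and the inhibitors near 2 (2660 to 2721 CPM against 1347 to 1384). Sums are weighted to abundant genes, such as *Mki67* among the mitotic genes and *Cdkn1a* among the inhibitors. The median log2 change of the inhibitors was 0.37, with 8 of 16 higher and 2 lower.

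Markers of cell types moved between the same Inputs, and their part in the result was not tested. *Itgam*, which encodes CD11b, was at 943 to 946 CPM in the Ctrl Inputs and 1693 to 1738 CPM in the IR Inputs. Its exons overlapped those of Gm49368 on its own strand over 3450 of 5024 bases, so its level is less certain. Of 10 macrophage and monocyte markers 6 rose and 3 fell, and their sum was 4168 to 4294 CPM in the Ctrl Inputs and 5154 to 5196 CPM in the IR Inputs. Of 10 neutrophil markers 6 rose and 2 fell, and their sum was 8267 to 8916 CPM in Ctrl and 10940.0 to 11491 CPM in IR. Of 3 granule genes of neutrophil precursors among them, *Elane* fell from 156 to 169 CPM to 81.9 to 89.2 CPM (-0.99 ± 0.041), while *Ngp* (0.12 ± 0.029) and *Camp* (0.23 ± 0.032) rose. Of 7 dendritic cell markers 2 rose and 3 fell, at sums of 243 to 245 and 272 to 278 CPM. Markers of lymphocytes, stroma and red cells were low in sum: 3.75 to 4.26 and 2.32 to 3.52 CPM for T and NK cells, 22.1 to 23.7 and 32.0 to 35.3 for B cells, 32.5 to 34.3 and 31.5 to 34.9 for fibroblasts and endothelium, and 0.515 to 1.34 and 1.47 to 1.68 for red cells. In the order of these lists, 1, 2, 2 and 0 markers rose and 1, 2, 1 and 0 fell, of 5, 5, 4 and 1 that could be tested. Of 4 epithelial markers tested 2 fell and 0 rose. The epithelial markers of the tumor summed to 127 to 136 CPM and 98.8 to 105 CPM, of which *Cdh1* alone made 115 to 122 and 86.0 to 90.1 CPM, while the defining markers *Krt19* and *Cdx2* had 0 counts in every Input.

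The second comparison, IP against Input, asks which of these transcripts came down with YTHDF2, and it is relative, since a log2(IP/Input) of 0 is set by the bulk of all genes. In Ctrl, most cell cycle transcripts were lower in the IP than in the Input and a smaller number were higher: 41 of 54 were lower and 11 higher by edgeR's quasi-likelihood F test, Benjamini-Hochberg adjusted. Of all 17416 genes tested 34.6% were lower and 34.1% higher, and of the protein-coding genes that averaged 100 counts or more 47.6% and 34.4%. The median log2(IP/Input) was -0.78 over the 54 genes and 0.018 over all genes. Of the S-phase genes 17 were lower and 4 higher, and of the mitotic genes 24 and 7.

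Of the 11 genes higher in the Ctrl IP, 7 were of the chromosomes and kinetochores. *Mki67* was at 680.3, 665 and 685 CPM in the Ctrl Inputs and 1534, 1471 and 1482 CPM in the Ctrl IPs, 1.22 ± 0.033 on the log2 scale (adjusted p = 1.34e-15, edgeR's quasi-likelihood F test, Benjamini-Hochberg adjusted). Every IP lay well above every Input. *Cenpf* went from 141, 133 and 130.0 CPM in the Input to 332, 342 and 329 CPM in the IP (1.39 ± 0.045), and *Cenpe* from 205, 202 and 199.9 to 499, 486 and 475 CPM (1.34 ± 0.039). *Smc4* was at 1243, 1254 and 1200.2 CPM in the IP (1.10 ± 0.034), while its partner *Smc2* was only just higher, at 255, 259 and 271 CPM against 248, 245 and 246 CPM (0.16 ± 0.041), and on the scale of library size only its value was -0.02. *Hmgb2* (0.47 ± 0.042) and *Top2a* (0.36 ± 0.036) were higher by less. The 4 S-phase genes that were higher were *Tyms* (0.98 ± 0.067), *Tk1* (0.55 ± 0.093), *Ccne1* (0.50 ± 0.11) and *Prim1* (0.45 ± 0.09). *Tyms* was at 75.1, 80.4 and 76.0 CPM in the Ctrl IPs, above all 3 Inputs.

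The genes lowest in the Ctrl IP came from several role groups. *Ccnb1* was at 3.17, 4.34 and 2.20 CPM in the Ctrl IPs against 24.8 to 27.4 CPM in the Inputs (-2.92 ± 0.18, adjusted p = 1.03e-10, edgeR's quasi-likelihood F test, Benjamini-Hochberg adjusted). *Ube2c* (-2.24 ± 0.073), *Ccna2* (-1.96 ± 0.07), *Nusap1* (-1.85 ± 0.10) and *Kif11* (-1.76 ± 0.093) were the next of the mitotic genes, and *Cdk1* was at 16.5, 18.1 and 14.6 CPM in the IP (-1.33 ± 0.094). *Pcna* was at 12.8, 7.59 and 10.1 CPM in the IP against 44.7 to 53.1 CPM in the Input (-2.22 ± 0.14), and *Mcm4* at 11.5, 8.34 and 6.30 CPM (-2.18 ± 0.15). Both reductase subunits were low in the IP, *Rrm2* at 17.6, 13.4 and 15.1 CPM (-1.98 ± 0.094) and *Rrm1* at -1.86 ± 0.071 on the log2 scale, although *Tyms* and *Tk1*, of the same pathway, were high. *Gins2* was at -1.33 ± 0.12, *Mcm5* at -0.86 ± 0.067, *Ccne2* at -0.60 ± 0.12 and *E2f1* at -0.38 ± 0.091. *Cdc6* was the only licensing gene that passed in neither direction (0.035 ± 0.11), and *Tacc3* the only such mitotic gene (-0.089 ± 0.058).

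In IR, with the IR Input and IR IP libraries, 41 genes were lower in the IP and 5 higher, with a median log2(IP/Input) of -0.72, beside 30.4% lower and 32.1% higher and a median of 0.10 over 18650 genes, and 46.5% lower and 26.3% higher with a median of -0.27 over the protein-coding genes that averaged 100 counts or more. The 5 that were higher were *Cenpf* (0.87 ± 0.057), *Mki67* (0.64 ± 0.039), *Tyms* (0.45 ± 0.091), *Cenpe* (0.44 ± 0.049) and *Smc4* (0.11 ± 0.037, which is near the median of all genes and was -0.02 with no filter on low counts). *Mki67* stood at 539, 521 and 533 CPM in the IR IPs against 351, 361 and 352 CPM in the IR Inputs, still without overlap. *Top2a* was at 424, 422 and 431 CPM in the IP and lower than its Input (-0.18 ± 0.038), as were *Hmgb2* (-0.30 ± 0.042) and *Smc2* (-0.71 ± 0.059). *Pcna* (-2.66 ± 0.12), *Ube2c* (-2.65 ± 0.15), *Stmn1* (-2.10 ± 0.12), *Mcm4* (-2.06 ± 0.29), *Ccnb1* (-2.03 ± 0.20), *Rrm1* (-1.99 ± 0.09), *Ccna2* (-1.91 ± 0.087), *Rrm2* (-1.88 ± 0.11), *Nusap1* (-1.82 ± 0.14) and *Mcm7* (-1.23 ± 0.17) were the 5 lowest S-phase and the 5 lowest mitotic genes. *Cdk1* was at -1.24 ± 0.12, *Mcm5* at -1.13 ± 0.14, *Ccne2* at -0.58 ± 0.20 and *E2f1* at -0.46 ± 0.11. *Ccne1* was at -0.021 ± 0.12 and passed in neither direction (adjusted p = 0.895, edgeR's quasi-likelihood F test, Benjamini-Hochberg adjusted).

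Other cell cycle genes were split in the same comparison. Of 26 other S-phase genes, 8 were higher and 10 lower in the Ctrl IP, by edgeR's quasi-likelihood F test, Benjamini-Hochberg adjusted, and in IR 4 and 11. *Lig1*, the ligase that joins Okazaki fragments, was at 1.37 ± 0.049 in Ctrl and 0.54 ± 0.054 in IR, and *Hells*, a chromatin remodeler, at 1.08 ± 0.055 and 0.65 ± 0.064. *Orc1*, of the origin recognition complex, was at -0.96 ± 0.23 in Ctrl. *Gmnn*, the inhibitor of *Cdt1* (-1.28 ± 0.22), and *Cdca7* (-1.07 ± 0.22) were the lowest in IR. Of 28 other mitotic genes, 9 were higher and 13 lower in Ctrl, and 5 and 14 in IR. *Cdca2*, which brings a phosphatase to chromatin (2.19 ± 0.048 in Ctrl and 1.52 ± 0.067 in IR), and *Ckap2l* (1.26 ± 0.059 and 0.59 ± 0.071) were the highest, while the Cdk-binding *Cks2* (-2.22 ± 0.13 and -2.47 ± 0.24) and *Cks1b* (-1.92 ± 0.10 and -2.11 ± 0.19) were the lowest.

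Of 17 G1 cyclins, Cdks and transcription factors, 3 were higher and 13 lower in Ctrl, and 2 and 10 in IR. *Ccnd2*, cyclin D2, was at 1.38 ± 0.037 in Ctrl and 0.98 ± 0.037 in IR, and its kinase *Cdk6* at 1.23 ± 0.04 and 1.23 ± 0.056. *Cdk2* was at -1.61 ± 0.075 and -1.62 ± 0.11, with *Cdk4* at -1.31 ± 0.075 in Ctrl and the E2F partner *Tfdp1* at -1.39 ± 0.069 in IR. *Foxm1* was at -0.65 ± 0.078 and -0.46 ± 0.11. *Myc* and *Mybl2* were lower in Ctrl (-0.21 ± 0.074 and -0.22 ± 0.083) and passed in neither direction in IR (-0.23 ± 0.12 and 0.23 ± 0.11). Of 16 cell cycle inhibitors, 3 were higher and 11 lower in Ctrl, and 1 and 11 in IR. *Cdkn1a*, the Cdk inhibitor p21, was at -1.12 ± 0.04 and -1.47 ± 0.036, and *Ccng2* at -1.76 ± 0.10 and -1.45 ± 0.16. *Rb1*, the retinoblastoma protein, was at -1.73 ± 0.14 in Ctrl. *Cdkn2b* was at 1.13 ± 0.20 in Ctrl, and *Btg2* at 0.74 ± 0.05 in Ctrl and 0.15 ± 0.058 in IR.

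**Figure D4:**
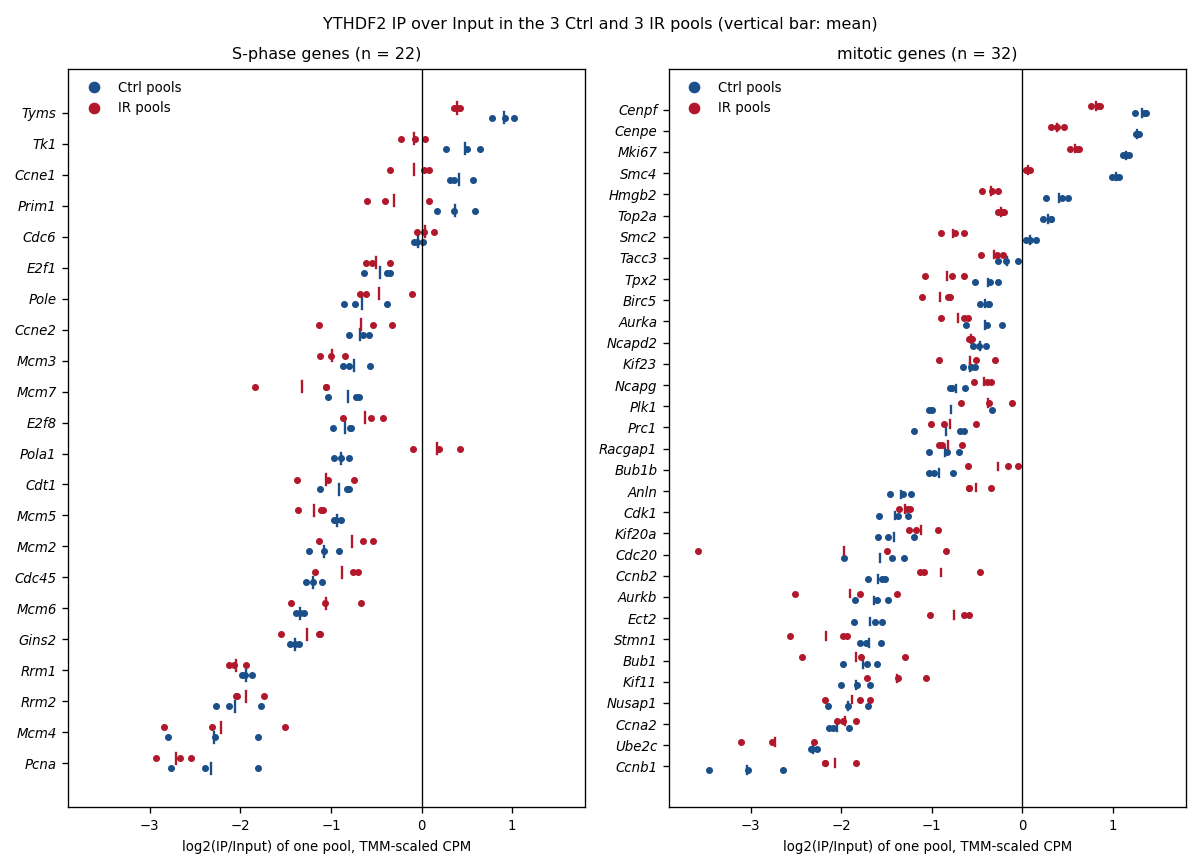
Log2(IP/Input) of the 54 genes in each of the 3 Ctrl pools (blue) and the 3 IR pools (red), on the 12-library scale, with IP and Input joined by replicate number. S-phase and mitotic genes are in separate panels, with rows in order of the mean of the Ctrl pools. *Mki67* lies at 1.11 to 1.17 in Ctrl and at 0.53 to 0.62 in IR, and *Ccnb1* at -1.83 or lower in every pool; scaled by library size only, all points would move and 15 genes would be higher in IR in place of 6.

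The third comparison, IR IP against Ctrl IP, asks how the levels of these transcripts in the YTHDF2 IP differed. They fell for 22 of 54 genes and rose for none: 9 of 22 S-phase genes and 13 of 32 mitotic genes were lower by edgeR's quasi-likelihood F test, Benjamini-Hochberg adjusted, with a median of -0.42. Of all 19255 genes tested 9.85% were lower and 6.12% higher, with a median of 0.062, and of the protein-coding genes that averaged 100 counts or more 17.0% were lower and 7.19% higher, with a median of -0.065. At an unadjusted p under 0.05, 1 S-phase gene was higher, and 11 S-phase and 16 mitotic genes were lower, and DESeq2 called 0 higher and 22 lower. The summed level of the mitotic genes was 6447 to 6474 CPM in the Ctrl IPs and 3481 to 3545 CPM in the IR IPs, and that of the S-phase genes 603 to 643 and 433 to 461 CPM.

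*Mki67* fell from 1534, 1471 and 1482 CPM to 539, 521 and 533 CPM in the IP (-1.48 ± 0.04, adjusted p = 7.22e-13, edgeR's quasi-likelihood F test, Benjamini-Hochberg adjusted). *Cenpf* fell from 332, 342 and 329 to 143, 147 and 137 CPM (-1.22 ± 0.058) and *Cenpe* from 499, 486 and 475 to 251, 252 and 253 CPM (-0.94 ± 0.05). In all 3 genes the 2 groups of IPs lay far apart with little spread within each. *Smc2* fell to 149.6, 131 and 144 CPM (-0.88 ± 0.066) and *Smc4* to 683, 725 and 699 CPM (-0.80 ± 0.041), and *Hmgb2* (-0.81 ± 0.043), *Tpx2* (-0.89 ± 0.10), *Birc5* (-0.69 ± 0.10) and *Top2a* (-0.45 ± 0.045) fell too. Of the S-phase genes, *Mcm3* (-0.73 ± 0.11), *Mcm7* (-0.71 ± 0.18), *Tk1* (-0.70 ± 0.13), *Mcm5* (-0.69 ± 0.15), *Tyms* (-0.60 ± 0.092) and *Ccne1* (-0.58 ± 0.15) fell, *Tyms* from 75.1 to 80.4 CPM to 48.2 to 54.8 CPM. *Pola1* was at 12.2, 11.1 and 11.1 CPM in the Ctrl IPs and 17.6, 13.1 and 17.8 CPM in the IR IPs, each IR value above each Ctrl value, and the change of 0.51 ± 0.18 did not pass the test (adjusted p = 0.0765 by the same edgeR test and adjustment). *Cdk1* (-0.42 ± 0.17), *Pcna* (-0.42 ± 0.24), *Rrm2* (-0.044 ± 0.18), *Ccne2* (-0.26 ± 0.23) and *E2f1* (-0.28 ± 0.14) did not pass. Neither did *Ccnb1* (-0.10 ± 0.39) nor *Cdc20*, at 1.11, 7.70 and 4.72 CPM in the 3 IR IPs (-0.85 ± 0.46). For these last 2 genes levels in the IP were low and the SE was wide. With library size only, where the median of all genes was 0.27, 4 S-phase genes were lower and 1 (*Pola1*) higher, and without replicate 3 of both groups 5 S-phase genes were lower. Over all genes, library size only gave 828 lower and 2665 higher of 19255, and 1326 of 17333 were lower without replicate 3.

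The other lists gave the following in the IP. Of 26 other S-phase genes 16 were lower and 0 higher, with *Cdca7* at -1.53 ± 0.21 and *Ung* at -1.22 ± 0.28. Of 28 other mitotic genes 10 were lower, with *Nuf2* at -0.84 ± 0.10 and *Kif20b* at -0.79 ± 0.08, and 2 higher, *Psrc1* (1.20 ± 0.12) and *Gtse1* (1.15 ± 0.22). Among the G1 genes 7 of 17 were lower and 0 higher, with *Myc* at -1.04 ± 0.13, *E2f2* at -0.48 ± 0.072, *Mybl2* at -0.47 ± 0.13 and *Foxm1*, which did not pass, at -0.15 ± 0.13. Of 15 inhibitors tested 6 were higher, led by *Ccng1* (1.66 ± 0.076) and *Cdkn1a* (1.32 ± 0.054), and 1, *Cdkn2d*, was lower (-0.49 ± 0.14).

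The last comparison tests whether log2(IP/Input) itself differed between IR and Ctrl, as an interaction in a fit of all 12 libraries. It shares its libraries with the comparisons above, so its values stand beside theirs and are no second evidence. Log2(IP/Input) was lower in IR for 13 of 54 genes and higher for 6, by edgeR's quasi-likelihood F test, Benjamini-Hochberg adjusted, beside 13.9% lower and 6.28% higher of 20720 genes tested (24.2% and 8.74% of protein-coding genes that averaged 100 counts or more). The median was -0.03 over the 54 genes and -0.083 over all genes. This split depended on the scale: with library size only, where the median of all genes was 0.23, 6 genes were lower and 15 higher. The 6 that were lower under both scales were *Smc4*, *Cenpe*, *Smc2*, *Hmgb2*, *Mki67* and *Top2a*, and all 6 that were higher stayed so.

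Of the 13 genes whose log2(IP/Input) was lower in IR, 5 were of the condensation and chromatin group and 4 of the kinesin, kinetochore and spindle group. Counts differed widely between genes, with a mean of 27099 counts for *Smc4* (SE 0.047) and 420 for *Ccnb1* (SE 0.27). Smaller changes could therefore pass in abundant genes, and the part of abundance in which genes passed was not tested. Per-pool values join the IP and the Input of the same number, which the labels do not tie to 1 pool, and same-numbered libraries did not deviate together. Genes are shown by their interaction in the same libraries, so the per-pool values describe it and are no second evidence. *Smc4* had log2(IP/Input) of 1.03, 1.07 and 0.99 in the 3 Ctrl pools and 0.038, 0.087 and 0.053 in the 3 IR pools. All 3 IR pools lay below the 3 Ctrl pools, with an interaction of -0.97 ± 0.047 (adjusted p = 1.74e-11, edgeR's quasi-likelihood F test, Benjamini-Hochberg adjusted). *Cenpe* went from 1.29, 1.27 and 1.25 to 0.38, 0.31 and 0.46 (-0.89 ± 0.06). *Smc2* changed by -0.85 ± 0.071 on the log2 scale and *Hmgb2* by -0.75 ± 0.061, and *Mki67* went from 1.17, 1.14 and 1.11 to 0.62, 0.53 and 0.60 (-0.56 ± 0.046). *Top2a* (-0.52 ± 0.049), *Cenpf* (-0.50 ± 0.068), *Birc5* (-0.50 ± 0.10), *Tpx2* (-0.45 ± 0.11) and *Stmn1* (-0.45 ± 0.13) completed the mitotic genes that were lower. The median of the 7 condensation and chromatin genes was 0.28 ± 0.048 over the Ctrl pools and -0.33 ± 0.063 over the IR pools (mean ± SD of the pool medians, n = 3). In S phase *Prim1* (-0.67 ± 0.17), *Tk1* (-0.55 ± 0.16) and *Tyms* (-0.51 ± 0.11) were lower, *Tyms* from 0.77, 1.02 and 0.92 to 0.36, 0.39 and 0.42 on the log2 scale. *Ccne1* (-0.50 ± 0.18) just missed the threshold (adjusted p = 0.0547 by the same edgeR test and adjustment).

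The genes whose log2(IP/Input) was higher in IR were *Pola1* and 5 mitotic genes. *Pola1* was at -0.80, -0.97 and -0.89 in the Ctrl pools and 0.42, -0.093 and 0.19 in the IR pools, with no overlap (1.07 ± 0.19, adjusted p = 0.000401, edgeR's quasi-likelihood F test, Benjamini-Hochberg adjusted). *Ect2* was at -1.86, -1.62 and -1.55 and -1.02, -0.65 and -0.59 (0.93 ± 0.23), and *Ccnb1* at -3.03, -2.64 and -3.46 and -2.18, -2.18 and -1.83 (0.92 ± 0.27). In all 3, which were picked by the same libraries, the IR pools lay above the Ctrl pools. *Anln* (0.83 ± 0.18), *Ccnb2* (0.70 ± 0.19) and *Bub1b* (0.67 ± 0.17) were the others. For *Ccnb1* and *Ccnb2* this rests on 2.20 to 11.2 CPM in the IP, and their pseudogenes held up to 134 and 46 counts in single IP libraries. The other lead genes did not pass: *Mcm5* (-0.25 ± 0.15), *Pcna* (-0.42 ± 0.20), *Rrm2* (0.12 ± 0.15), *Cdk1* (0.10 ± 0.15), *Ccne2* (0.034 ± 0.24) and *E2f1* (-0.06 ± 0.15). Without replicate 2 of every group no S-phase gene was lower and without replicate 3 only 1 was, and without replicate 1 there were 2 mitotic genes and 2 S-phase genes that were higher. Over all genes, 1786 of 18888 were lower without replicate 2 and 1890 of 19100 without replicate 3, beside 2881 of 20720 with all replicates. Without replicate 1, 1012 of 18827 were higher, beside 1301 of 20720 with all replicates. *Tk1* was lost in each of the 3 fits.

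In the other lists, log2(IP/Input) was higher in IR for 1 and lower for 7 of the other S-phase genes, for 2 and 10 of the other mitotic genes, for 2 and 3 of the G1 genes and for 2 and 5 of the inhibitors. *Lig1* was lower (-0.82 ± 0.072) and *Ung*, a uracil-DNA glycosylase, was higher (1.22 ± 0.36). *Ndc80*, of the outer kinetochore (-0.76 ± 0.13), and *Hmmr* (-0.66 ± 0.088) were lower, and the kinase *Nek2* (0.81 ± 0.22) and *Dlgap5* (0.65 ± 0.18) higher. *Ccnd2* (-0.38 ± 0.051) and *Ccnd3* (-0.38 ± 0.059) were lower, and *Mybl2* (0.47 ± 0.14) and *E2f4* (0.42 ± 0.12) higher, while *Foxm1* (0.21 ± 0.14) and *Myc* (0.0013 ± 0.13) did not pass. Among the inhibitors *Cdkn2d* (-0.93 ± 0.13), *Btg2* (-0.57 ± 0.077) and *Cdkn1a* (-0.33 ± 0.049) were lower, and *Rb1* (1.04 ± 0.20) and *Ccng1* (0.31 ± 0.076) higher. With library size only, *Ccnd2* (-0.067), *Ccnd3* (-0.067) and *Cdkn1a* (-0.016) no longer passed and *Foxm1* (0.52) did.

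**Figure D5:**
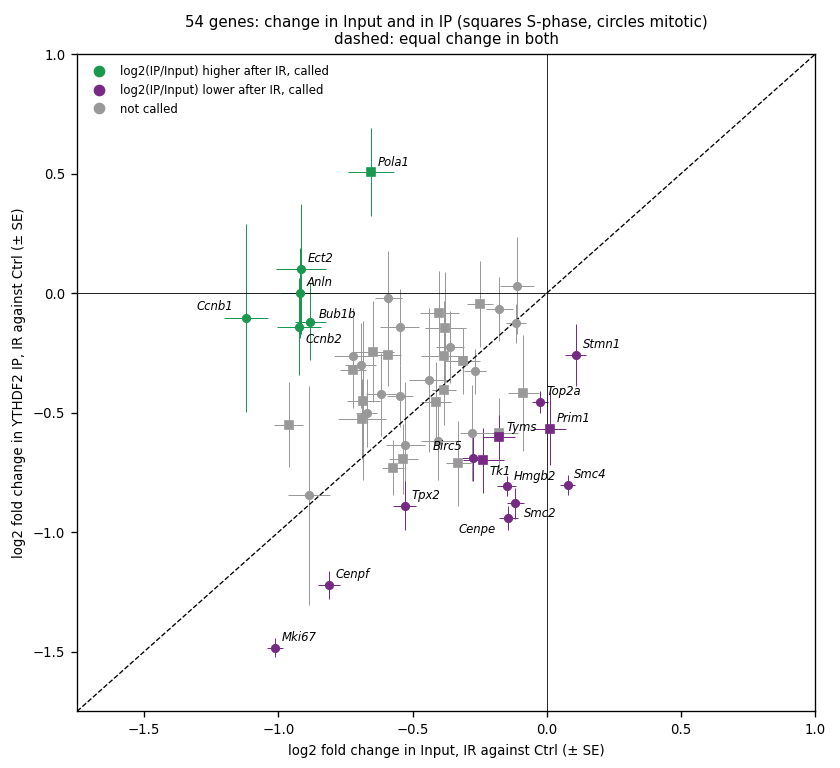
Log2 change with IR in the Input (x axis) against that in the IP (y axis) for the 54 genes, each from its own fit, with green for genes whose log2(IP/Input) was higher in IR and purple for those lower. The axes share no library but come from the same pools, Spearman's rho was -0.15 over the 54 genes, and *Mki67* lies at -1.01 and -1.48; scaled by library size only, 15 genes would be green and 6 purple.

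Changes in the Input and in the IP, which use different libraries of the same pools, followed each other little across the genes. Spearman's rho was -0.15 across the 54 genes, -0.20 across the 22 S-phase genes, -0.15 across the 32 mitotic genes and 0.13 across 15958 genes tested in both, given as descriptions, since genes are not independent replicates. *Ccnb1*, *Anln* and *Ect2* had Input changes near -1 and IP changes of -0.10 ± 0.39, 0.0016 ± 0.19 and 0.10 ± 0.27. *Smc4*, *Smc2* and *Cenpe* had Input changes of 0.078 ± 0.028, -0.12 ± 0.032 and -0.14 ± 0.036 and IP changes of -0.80 ± 0.041, -0.88 ± 0.066 and -0.94 ± 0.05. *Mki67* and *Cenpf* were low in IR in both.

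The transcripts differed in length, which the choice of genes did not use. The longest coding sequences were those of *Cenpf* (8991 bases), *Mki67* (9531), *Cenpe* (7413) and *Pole* (6849). The first 3 were higher in the IP than in the Input in Ctrl and IR, and *Pole* was lower in Ctrl (-0.59 ± 0.10). Over the 11 genes higher in the Ctrl IP the median coding length was 3573 bases, over the 41 lower ones 1884 bases, and over all coding genes tested 1383 bases. *Tyms* and *Tk1*, also higher in the Ctrl IP, were short, at 921 and 699 bases. Spearman's rho of log2(IP/Input) with coding length was 0.25 in Ctrl and 0.41 in IR across the 54 genes, and 0.26 and 0.36 across 13032 and 13795 coding genes. With the number of GGAC letters in the transcript, the core of the m6A motif on the transcript's own strand, rho was 0.25 and 0.36 across the 54 genes and 0.33 and 0.41 across all. With the longest exon, rho was 0.0021 and -0.023 across the 54 genes and 0.22 and 0.28 across all. With GGAC letters per kb, which takes length out, rho was 0.015 and 0.036 across the 54 genes and 0.17 and 0.14 across all. Points share their libraries, and longer transcripts hold more copies of any letters.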

How the data were processed

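RIP-seq reads of 12 libraries were, per the labels and the study's methods, trimmed with Trimmomatic 0.39, aligned with HISAT to mm10 with GENCODE M19 genes, and counted per gene with HTSeq. The authors deposited these values as raw read counts, 1 table per library. Labels speak of mRNA while the methods name a total RNA kit. The 5 HTSeq summary lines per table (24.6% to 54.1% of uniquely placed reads were outside annotated exons) were left out of library sizes. Symbols came from a GENCODE annotation that held 99.9% of the gene IDs (97.8% with the same version).

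In each comparison, genes reaching 10 counts in 3 or more of its libraries entered a fit in R 4.3.3 with edgeR 4.0.16 (TMM scaling, quasi-likelihood test, two-sided, Benjamini-Hochberg adjustment over all genes tested, threshold 0.05). DESeq2 1.42.0, other scalings and filters, a replicate block and fits without each replicate were alternatives. Log2(IP/Input) per pool (IP and Input of the same number) and CPM used TMM over 12 libraries. The members and lists were chosen with earlier results of these data known. Values were given for *Mki67*, *Top2a*, *Cdk1*, *Ccnb1*, *Pcna*, *Mcm5*, *Rrm2*, *Tyms*, *Ccne1*, *Ccne2* and *E2f1*, for the 5 S-phase and 5 mitotic genes with the largest called change at a mean of 100 or more counts, for the 2 largest changes each way in each other list, and for *Cdkn1a*, *Foxm1*, *Mybl2* and *Myc*; further members were named to account for all 54. Some genes outside the 54 that this rule names are not reported here. On simulated counts with 200 genes changed 2-fold, edgeR recovered 96% in the Input comparison (16597 genes), 68.5% in the IP comparison (18199), 87.5% and 72.5% in IP against Input of Ctrl and IR (16909 and 18033) and 71% in the interaction (19890), with 2.54% to 8.39% false calls. Replicates of a group differed by more than sampling noise (chi-square of their counts per degree of freedom 3.59 to 21.5, where 1 is sampling noise), so each was counted as 1 sample, and their numbers were checked for pairing. Promoters were RefSeq GRCm38.p6 windows. Depth ranged from 27852948 to 42382532 counts on genes, and floors of 3 counts cover counting error only.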

Additional observations from a re-analysis of the deposited data

Results flagged for a closer look

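The change of log2(IP/Input) with IR passed the interaction test (edgeR's quasi-likelihood F test, Benjamini-Hochberg adjusted, all 12 libraries) in 19 of the 54 genes, 13 lower and 6 higher, beside 13.9% lower and 6.28% higher of all genes tested and 24.2% and 8.74% of the protein-coding genes that averaged 100 counts or more, so the share among the 54 was near that of expressed coding genes. Passing means that the difference between IP and Input was not the same in IR and Ctrl. It was positive for *Pola1* (1.07), *Ect2* (0.93), *Ccnb1* (0.92), *Anln* (0.83), *Ccnb2* (0.70) and *Bub1b* (0.67). It was negative for *Smc4* (-0.97), *Cenpe* (-0.89), *Smc2* (-0.85), *Hmgb2* (-0.75), *Prim1* (-0.67), *Mki67* (-0.56), *Tk1* (-0.55), *Top2a* (-0.52), *Tyms* (-0.51), *Birc5* (-0.50), *Cenpf* (-0.50), *Stmn1* (-0.45) and *Tpx2* (-0.45). With library size only, *Prim1*, *Tyms*, *Tk1*, *Birc5*, *Cenpf*, *Tpx2* and *Stmn1* did not pass.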

How the results depend on the processing

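Of 236 recomputed counts of S-phase and mitotic genes, 196 stayed within 1.5 times the reported count and 40 did not. Of 3113 recomputed values of single genes, 2902 kept their direction and their side of the threshold, 174 were no longer past it, 14 passed it newly and 23 changed sign. The cause of these shifts was not tested.

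Scaling by library size only gave 0 mitotic genes higher in the Input, and 1 S-phase gene higher and 4 lower in the IP. In the interaction it gave 5 S-phase genes higher and 0 lower, with 10 mitotic genes higher and 6 lower. Over all genes this scaling gave 3320 higher and 4278 lower of 16914 in the Input. It gave 2665 and 828 of 19255 in the IP, and 2862 and 877 of 20720 in the interaction. All 12 libraries in 1 fit gave in the Input 9 S-phase genes lower, 1 mitotic gene higher and 15 lower. In the IP that fit gave 1 S-phase gene higher and 14 lower. Over all 20720 genes it gave 2621 higher and 1500 lower in the Input, and 2125 and 2952 in the IP. A minimum of 10 counts in every library, or protein-coding genes alone, gave 1 S-phase gene higher in the IP, and no filter gave 5 S-phase genes lower in the interaction. Over all genes, 1425 of 14441 and 1225 of 13997 were higher in the IP under the first 2 settings. With no filter 3161 of 39988 were lower in the interaction. A change of at least 2-fold left in the Input 0 S-phase genes lower, and 0 mitotic genes higher and 2 lower; in the IP 0 S-phase and 2 mitotic genes lower; in IP against Input 0 S-phase genes higher and 7 lower in both conditions, with 4 mitotic genes higher and 14 lower in Ctrl and 0 higher and 11 lower in IR; and in the interaction 0 S-phase genes lower, and 0 mitotic genes higher and 0 lower. Over all genes, the 2-fold limit left 344 higher and 674 lower of 16914 in the Input, and 571 and 135 of 19255 in the IP. It left 3625 and 3232 of 17416 in IP against Input of Ctrl, and 4102 and 3104 of 18650 in IR. In the interaction it left 589 and 270 of 20720. Without 1 replicate number of every group, 0 to 1 mitotic genes were higher in the Input and 5 to 8 S-phase genes were lower in the IP. In the interaction of those fits 1 to 2 S-phase genes were higher, 0 to 2 lower, and 2 to 4 mitotic genes were higher. Over all genes, without replicate 1, 2 and 3, 3132 of 16123, 2854 of 16098 and 2658 of 16036 were higher in the Input. In the same order, 1348 of 16927, 1097 of 17027 and 1326 of 17333 were lower in the IP. In the interaction 1012 of 18827, 838 of 18888 and 849 of 19100 were higher, and 2046, 1786 and 1890 lower.

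Same-numbered libraries did not deviate together (correlations of their deviations -0.019 to 0.024), so the numbers were not taken as pairs in the fits. With the replicate block 5 S-phase genes were lower in the interaction, *Ccne1* among them, beside 2766 of all 20720 genes, and the block moved no other count by more than 1.5 times.

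Signs changed for *Top2a* in the Input with all 12 libraries (0.053). In the IP they changed with library size only for *Rrm2* (0.16), *Ccnb1* (0.098) and *Foxm1* (0.054), for *Rrm2* with 10 counts in every library (0.0083), and for *Ccnb1* without replicate 2 (-0.37 to 0.24 over the fits without 1 replicate). In IP against Input they changed in Ctrl for *Smc2* with library size only (-0.020), and in IR for *Smc4* with no filter (-0.024) and for *Ccne1* with DESeq2 (0.027), its size factors (0.027), library size only (0.13), 10 counts in every library (0.10), protein-coding genes (0.11) and without replicate 2 or 3 (-0.037 to 0.17 without 1 replicate). In the interaction they changed with library size only for *Mcm5* (0.062) and *E2f1* (0.25), for *E2f1* also with 10 counts in every library (0.051), protein-coding genes (0.018) and without replicate 2 (-0.057 to 0.022 without 1 replicate), for *Myc* with no filter (-0.022) and without replicate 2 (-0.11 to 0.10 without 1 replicate), and for *Ccne2* without replicate 3 (-0.12 to 0.21 without 1 replicate). Precision was lowest in the IR IP libraries, where members such as *Ccnb1*, *Cdc20* and *Mcm4* had only a few CPM.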
